A study of Arabidopsis thaliana with 5 samples.

Results

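The class III peroxidases of Arabidopsis thaliana, a family of secreted haem enzymes of the plant cell wall, were followed in seedlings held at low oxygen. The members are the 73 loci of the family, named PER1 to PER73 in the order of their locus codes. Of these, 46 were measured by a probe set annotated to that gene alone, among 3592 genes that could be named in all. A gene with several probe sets, as 5 of the 46 have, is given by the one with the highest mean signal. The family came into view because many of its genes were high on the array of 30 min of hypoxia. Values of that comparison are therefore a description with no test, and nothing is supported with them.

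The series measured gene expression in whole seedlings, aged 14 days, of ecotype Col-0, with 1 Affymetrix array for each treatment and time. The plants grew on upright agar plates at 22 °C in days with 16 h of light. Hypoxic seedlings were kept in bags flushed with 0.2% oxygen and 99.8% nitrogen for 30, 60 or 240 min, which gives 3 arrays, and air seedlings were sampled at 0 and 240 min, which gives 2. All values are RMA signals on the log2 scale, where a difference of 1 is 2-fold, and a difference is always hypoxia minus air unless said otherwise. No air arrays of 30 and 60 min were analysed here, so both of these hypoxic arrays are set against 0 min air and share it, and 240 min of hypoxia is set against 240 min air. With 1 array on each side these differences carry no replicate error, and whether a sample pooled several seedlings is not given in the sources used here.

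Class III peroxidases use hydrogen peroxide to oxidise phenolic compounds. In the wall they join lignin and suberin precursors and crosslink structural proteins, which stiffens it, and in another reaction cycle they make reactive oxygen species that loosen it or act in defence. Many members are known for expression in roots, in root hairs, the endodermis and the vessels.

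Markers of both shoot and root were read on all arrays, as the whole-seedling label has it, and 2 arrays stood apart. Of 64 shoot markers, all genes of photosynthesis or photorespiration, 12 were measured, and RCA, which encodes Rubisco activase, read between 13.27 and 14.71 on the 5 arrays. Of 54 root markers 2 were measured, and BGLU21, a β-glucosidase gene of roots, read between 7.05 and 9.32. XTH26, the other, read between 4.98 and 5.46, near the array medians of 5.12 to 5.14, so the root reading rests on BGLU21. The pair of air arrays correlated at r = 0.991 over 8247 probe sets and their differences had an SD of 0.22, while the 30 min and 240 min hypoxic arrays correlated with 0 min air at 0.952 and 0.928 (correlations across probe sets, not across replicates). On the 30 min array the GAPDH and ubiquitin control probe sets were higher than in 0 min air by 1.51 to 1.78. The actin control differed by only 0.18, and the 25S and 5S ribosomal RNA controls by 0.44 and 0.08. On the 240 min hypoxic array, probe sets with adjacent numbers had differences that correlated at r = 0.556, against at most 0.220 in the other comparisons. The GAPDH control at the 3′ end read 1.97 above that at the 5′ end there, where the other 4 arrays gave −0.23 to 0.69. The ubiquitin control was higher at the 3′ than at the 5′ end on every array, with 12.05 and 9.66 at 240 min of hypoxia. At 30 and 60 min of hypoxia its ends read 13.07 and 10.92, and 11.25 and 9.58. In air at 0 and 240 min they read 11.32 and 9.35, and 11.72 and 9.83. The genes known to be induced by low oxygen ran against the labels of the 30 and 240 min hypoxic arrays. All 5 measured of 20 low-oxygen core genes were below air on both arrays, 2 and 3 of them by 1 or more, with medians of −0.25 and −1.48, while at 60 min 3 were higher by 1 or more and 0 were below air. In air, 3 of the 5 were higher by 1 or more at 240 min than at 0 min. Hypoxia and air are used as the labels give them, and every direction rests on these labels. The part of these features in the peroxidase values was not tested, but the values are given where they touch a result.

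After 30 min of hypoxia, 16 of the 46 measured peroxidases were at least 1 above 0 min air and 0 were at least 1 below it. Of all named genes, 2.59% were higher and 1.87% lower under the same rule, and of all probe sets 2.87% and 2.93%, where the rule also asks that 1 of the 2 arrays compared reaches its median signal. The share of members is 34.8%, and since the family was picked on this contrast, it is given without a test. The median difference of the 46 members was 0.28, against 0 over the named genes. Among the members 31 differences were above 0, 11 below 0 and 4 exactly 0.

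**Figure D1:**
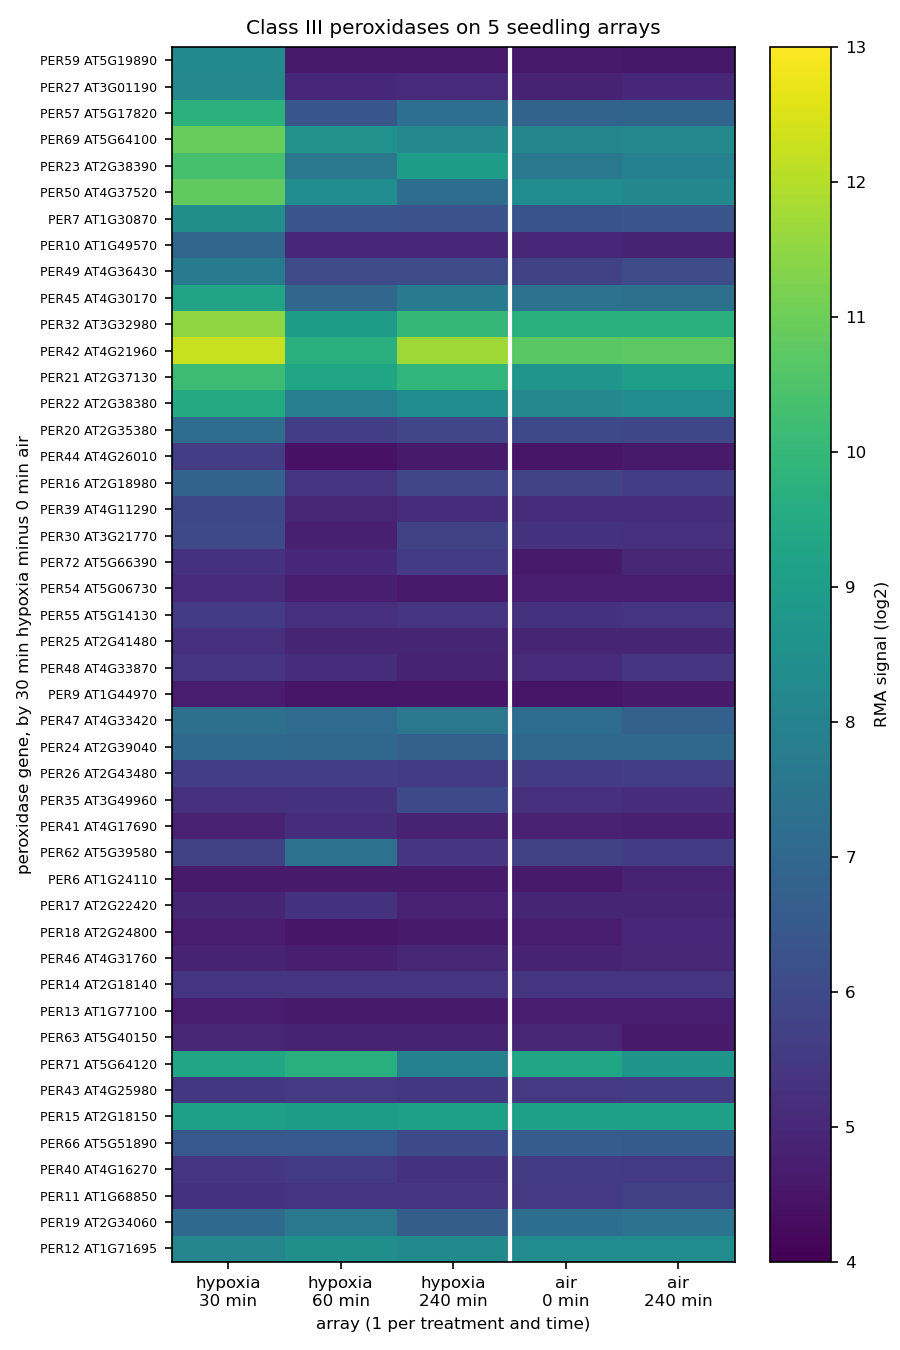
RMA signal (log2, colour) of the 46 measured peroxidases (rows, ordered by the difference between 30 min of hypoxia and 0 min air) on the 3 hypoxic arrays and the 2 air arrays (columns, parted by a white line). The rows at the top are brightest in the 30 min column, PER62 is brightest at 60 min, and PER15, near the bottom, has almost the same colour in all 5 columns.

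Some members were close to the floor on every array but one, among them the gene with the largest difference. PER59 (AT5G19890) read 8.31, 4.66 and 4.61 at 30, 60 and 240 min of hypoxia, against 4.63 and 4.57 in air at 0 and 240 min. The 30 min array alone was high, at 3.68 above 0 min air. PER10 (AT1G49570) read 6.98, 5.0 and 5.0 in hypoxia, against 4.99 and 4.89 in air, a difference of 1.99 at 30 min. On the other 4 arrays PER59 and PER10 both lie below the array medians of 5.12 to 5.14. RMA compresses such low signals, so both differences can understate the change.

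A list of genes of root hairs and root elongation held 4 of the 16. Of its 9 loci 7 were measured, 4 were higher by 1 or more at 30 min and 0 lower, and their median difference was 1.07. The shares were 34.8% of all members and 2.59% of named genes. At 60 min, 240 min and in air, 0 of the 7 differed by as much, with medians of −0.08, 0 and 0.03. The list leaves out PER62 and PER69, which are known from root hair growth in the cold. With them 5 of 9 measured genes were higher at 30 min and 1, PER62, at 60 min. The family was chosen on the 30 min contrast, and nothing is read from these counts. PER27 (AT3G01190), a root-expressed peroxidase, read 8.22, 5.02 and 5.07 at 30, 60 and 240 min of hypoxia, against 4.87 and 5.05 in air, and was higher by 3.35 at 30 min. PER57 (AT5G17820), a target of the root growth regulator UPBEAT1, read 9.78, 6.41 and 7.29, against 6.86 and 6.89 in air, with a difference of 2.93 at 30 min. PER7 (AT1G30870), expressed in root hair cells, read 8.44, 6.39 and 6.30, against 6.35 and 6.39 in air, with a difference of 2.09. In each of the 3 genes the 30 min array lies above the other 4 by more than 2, and the air arrays lie within 0.18 of each other.

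PER44 (AT4G26010), one of the peroxidases known to act in root hair growth, read 5.62, 4.42 and 4.64 in hypoxia, against 4.56 and 4.64 in air. Its difference of 1.07 at 30 min is the smallest that was counted, and its 30 min signal is not far above the array median of 5.13. The other 3 measured genes of the list were not counted. PER39 (AT4G11290), also a UPBEAT1 target, differed by 0.78 at 30 min, PER40 (AT4G16270), another of these targets, by −0.15, and PER35 (AT3G49960), of root hair cells, by 0.02. PER35 was the only one of the 7 to stand highest at 240 min of hypoxia, with 5.98 against 5.15 in 240 min air (a difference of 0.83). Its neighbours by probe-set number had a median difference of −0.03 in that comparison.

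Of 11 loci known for lignin or the Casparian strip, the lignin barrier of the endodermis, 7 were measured. Of these, 0 were higher or lower by 1 or more in any of the 4 comparisons, with a median of 0.22 at 30 min. At 30 min 34.8% of all members were higher, and 2.59% of named genes were higher and 1.87% lower. The family was chosen on the 30 min contrast, and nothing is read from this count. PER39, above, is on this lignin and Casparian strip list too. Of the 7 it had the largest 30 min difference, 0.78, followed by PRX72 at 0.63, and it spanned 1.01 over the 5 arrays. PRX72 (PER72, AT5G66390), a lignin-forming peroxidase, read 5.29, 4.99 and 5.57 at 30, 60 and 240 min of hypoxia, against 4.66 and 4.96 in air. Its 3 hypoxic values lie above both air values, though 60 min of hypoxia and 240 min of air differ by only 0.03. Its neighbours by probe-set number on the 240 min array had a median difference of 0.55, close to its own 0.61. PER66 (AT5G51890), expressed in differentiating vessels, read 6.48, 6.47 and 6.02, against 6.62 and 6.56 in air. All 3 hypoxic values are below both air values, and the differences from the air array of each comparison were −0.14, −0.15 and −0.54 at 30, 60 and 240 min. PER9 (AT1G44970), PER17 (AT2G22420) and PRX25 (PER25, AT2G41480) stayed between 4.51 and 5.31 on all arrays.

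PRX71 (PER71, AT5G64120), which is known in both lignin formation and defence, had its highest signal at 60 min. It read 9.30, 9.63 and 7.97 at 30, 60 and 240 min of hypoxia, against 9.31 and 8.65 in air at 0 and 240 min. Its 30 min signal differed from 0 min air by −0.01, and the lowest value was at 240 min of hypoxia, 0.69 below 240 min air. Air itself was lower at 240 min than at 0 min by 0.66, the largest difference between the air arrays among the 46 members.

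The defence group, in which 3 of 8 loci were measured, held the only member that was high at 60 min. PER62 (AT5G39580), known from root hair growth in the cold, read 5.78, 7.35 and 5.42 at 30, 60 and 240 min of hypoxia, against 5.78 and 5.58 in air. The 60 min array stands 1.57 above 0 min air and the 30 min array, which nearly coincide, while all 4 other arrays lie within 0.37 of each other. It was the 1 member of 46 that was higher by 1 or more at 60 min, or 2.17%, beside 1.03% of named genes, so that the family as a whole stood near the background.

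PER21 (AT2G37130), studied in defence against fungi, had every hypoxic array above both air arrays. It read 10.16, 9.33 and 9.91 at 30, 60 and 240 min of hypoxia, against 8.68 and 9.03 in air, so that the groups do not overlap. The differences were 1.48, 0.65 and 0.88 at the 3 times, and 240 min of air exceeded 0 min by 0.36. Its neighbours by probe-set number had a median difference of 0.33 at 240 min. Over all times the difference of PER21 was 0.94 ± 0.29 (SE, n = 3 against 2). It did not pass the test across the 8247 probe sets (limma, unadjusted p = 0.0286, adjusted p = 0.98). That fit holds both arrays on which the family was chosen. Without the 30 min array the difference was 0.76 ± 0.28 (SE, limma, unadjusted p = 0.0639, adjusted p = 0.936). This smaller fit still holds the 0 min air array, the other side of the contrast on which the family was chosen. With the 0 min air array left out instead, which leaves 1 air array, the difference was 0.76.

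In that test of hypoxia against air, with the times as replicates, 0 of the 46 members and 0% of all probe sets passed an adjusted p of 0.05 (limma). At an unadjusted p of 0.05, 1 member was higher and 0 lower, beside 0.558% of probe sets higher and 1.39% lower. PER21 is that member, and without the 30 min array 0 members were higher or lower at that p. In 5 members (10.9%) all hypoxic arrays read above both air arrays, beside 5.37% of named genes, namely PER10, PER21, PER35, PER41 (AT4G17690) and PRX72. In PER10, PER35, PER41 and PRX72 the lowest hypoxic value exceeds the highest air value by only 0.01, 0.02, 0.005 and 0.03, against 0.29 in PER21. In 4 members (8.70%) all read below both, beside 7.38% of named genes, namely PER11 (AT1G68850), PER13 (AT1G77100), PER15 (AT2G18150) and PER66. Both counts use the 30 min and 0 min air arrays, on which the family was chosen, and nothing is read from them. In this fit a gene that is high at 1 time only has a wide spread among the hypoxic arrays. An example is PER59, with 1.26 ± 1.31 (SE, limma, adjusted p = 0.98).

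**Figure D2:**
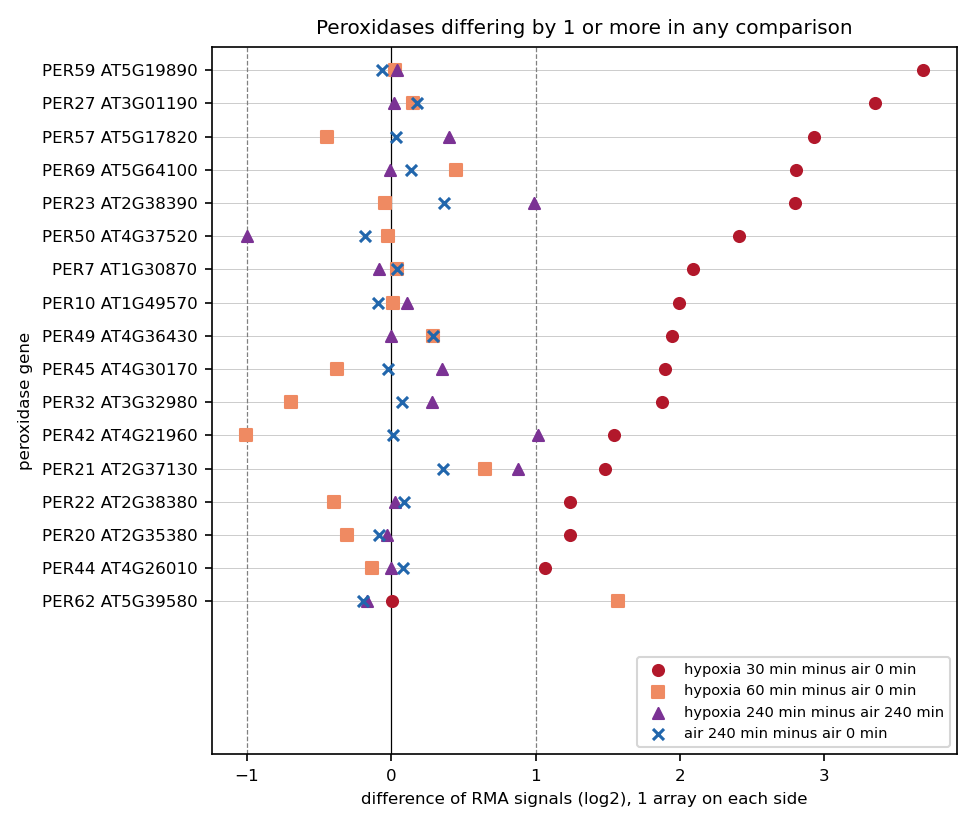
Differences of RMA signals (log2, horizontal axis) for the 17 peroxidases that differed by 1 or more in any comparison (rows), each from 1 array on each side, with dashed lines at −1 and 1. The circles of the 30 min comparison lie right of 1 for 16 genes, while the squares (60 min), triangles (240 min) and crosses (air at 240 minus 0 min) lie mostly between the dashed lines, with PER62 at 1.57 at 60 min as an exception.

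Of the 46 members 8, or 17.4%, had their arrays in 1 order, with 30 min of hypoxia highest, then 240 min of hypoxia, then both air arrays and 60 min of hypoxia lowest. This order was found in 2.17% of named genes, and it was noticed in the values before it was counted and rests in part on the 30 min array. The peroxidase gene PRXR1 (PER42, AT4G21960) read 12.25, 9.70 and 11.73 at 30, 60 and 240 min of hypoxia, against 10.71 and 10.72 in air at 0 and 240 min. It was thus above air at 30 min by 1.54 and at 240 min by 1.02, and below it at 60 min, at −1.01, while the air arrays differed by 0.01. PER32 (AT3G32980) read 11.51, 8.93 and 9.99, against 9.63 and 9.70 in air. PER45 (AT4G30170) read 9.24, 6.97 and 7.68, against 7.35 and 7.33 in air. Their 60 min differences were −0.70 in PER32 and −0.38 in PER45, and their 240 min differences 0.28 and 0.35.

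PER57, above, has this order too, as do PER16, PER30 and the tandem neighbours PER22 and PER23. PER23 (AT2G38390) read 10.39, 7.55 and 8.95 at 30, 60 and 240 min of hypoxia, against 7.60 and 7.96 in air, with differences of 2.80 at 30 min and 0.99 at 240 min. PER22 (AT2G38380) read 9.49, 7.85 and 8.37, against 8.25 and 8.34 in air, with a difference of 1.24 at 30 min. Its second probe set, which is dimmer, was higher by 1.93 at 30 min and by 0.66 at 240 min. The PER22 probe sets may also read similar transcripts, possibly that of PER23. The array's designers marked them as matching similar transcripts (s suffix) or as reduced in number (i suffix). The PER23 probe set has neither suffix.

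PER69 (AT5G64100), which acts with PER62 in root hair growth in the cold, read 10.92, 8.56 and 8.24 at 30, 60 and 240 min of hypoxia, against 8.11 and 8.25 in air. Its difference at 30 min was 2.81 and at 60 min 0.45. It lies in a row of neighbouring genes with PER70, which was not measured by a named probe set, and PRX71, whose 30 min difference of −0.01 stands beside it. PER50 (AT4G37520) read 10.80, 8.36 and 7.21, against 8.39 and 8.21 in air. It was higher by 2.41 at 30 min and lower at 240 min, at −1.001, the only member counted as lower there. Its probe set has the s suffix, and its neighbour PER51 was not measured on its own.

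PER49 (AT4G36430) read 7.71, 6.04 and 6.04 at 30, 60 and 240 min of hypoxia, against 5.76 and 6.04 in air, a difference of 1.95 at 30 min. Exactly equal values on different arrays are common in the table, and 8.70% of members and 5.07% of all probe sets had the same value at 30 min and in 0 min air. PER20 (AT2G35380) read 7.23, 5.68 and 5.88, against 5.99 and 5.91 in air, with a difference of 1.24, and its dimmer second probe set differed by 0.47. Just short of the count was PER16 (AT2G18980), which differed by 0.99 at 30 min and read 6.82, 5.38 and 5.89, against 5.83 and 5.65 in air.

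On the 30 min array, 13 of the 46 members (28.3%) stood above all 4 other arrays by 1 or more, against 1.84% of named genes, which restates the array that brought the family into view. All 16 genes counted at 30 min were highest on that array. At 60 min, 13 of the 16 were within 0.5 of 0 min air and 9 were below it, with a range of −1.01 to 0.65 and a median of −0.03. At 240 min, 12 were within 0.5 of time-matched air and 10 above it, with a range of −1.001 to 1.02 and a median of 0.03. In air, all 16 were within 0.5 between 240 and 0 min, from −0.18 to 0.37. The shares of named genes within 0.5 of air were not counted, so these counts do not set the 16 apart from other genes. The comparisons at 30 and 60 min and that of the air arrays share the 0 min air array, and with 240 min air in its place 15 of the 16 were counted at 30 min, without PER44 (0.98) and with PER16 (1.17) added.

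The share counted at 30 min was also taken by level in air. Among the 13 peroxidases that read 7 or more in 0 min air, 8 were higher by 1 or more at 30 min, or 61.5%, beside 7.30% of 452 named genes of that level. Between 5.5 and 7 the counts were 4 of 10 members, or 40%, beside 4.59% of 676 named genes. Under 5.5 they were 4 of 23 members, or 17.4%, beside 1.18% of 2464. Of the 452 named genes at 7 or more 55 were lower, and of the 13 peroxidases 0 were. The family was chosen on this contrast, so the classes are no test, and nothing is read from these counts. The level classes use the 0 min air array that also enters the difference, and the named genes include the members.

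**Figure D3:**
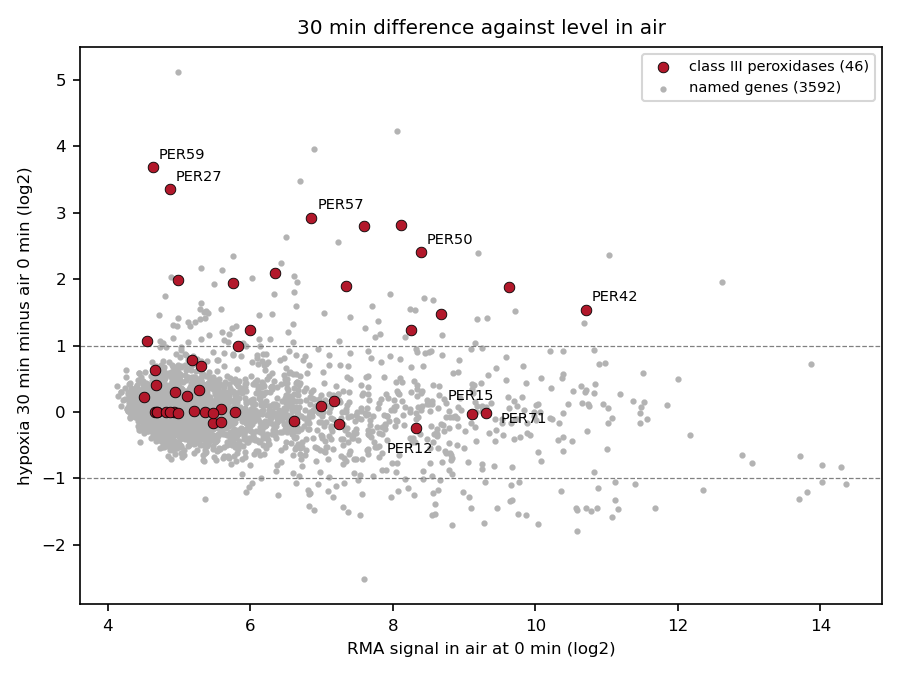
Difference between 30 min of hypoxia and 0 min air (log2, vertical axis) against the signal in 0 min air (log2, horizontal axis) for the 46 peroxidases (red) and all 3592 named genes (grey), with dashed lines at −1 and 1. The peroxidases lie within or above the grey band at every level, from PER59 at 3.68 to PER12 at −0.24, and none lies below −1.

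Beside the peroxidases at 30 min, the shoot markers were lower and the root marker BGLU21 was higher. All 12 measured shoot markers were below 0 min air, 7 of them by 1 or more, with a median of −1.04. Their summed linear signal was 45383 at 30 min, 87146 at 60 min and 93064 at 240 min of hypoxia, against 87008 and 89647 in air at 0 and 240 min. BGLU21 read 9.32, 7.05 and 8.58 at 30, 60 and 240 min of hypoxia, against 7.71 and 7.59 in air. XTH26, the other measured root marker and a gene of root hairs, read 5.08, 5.15 and 5.46, against 4.98 and 5.09. The summed signal of these 2 root markers ran from 168 to 671 in hypoxia, against 226 and 242 in air. BGLU21 was the brighter of the 2 on every array. In BGLU21 the arrays have the same order as in PRXR1 and the 7 other peroxidases with that order. In a whole seedling, a larger share of root cells and more RNA of these genes per root cell cannot be told apart. The part of the root and shoot markers in the peroxidase values was not tested.

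**Figure D4:**
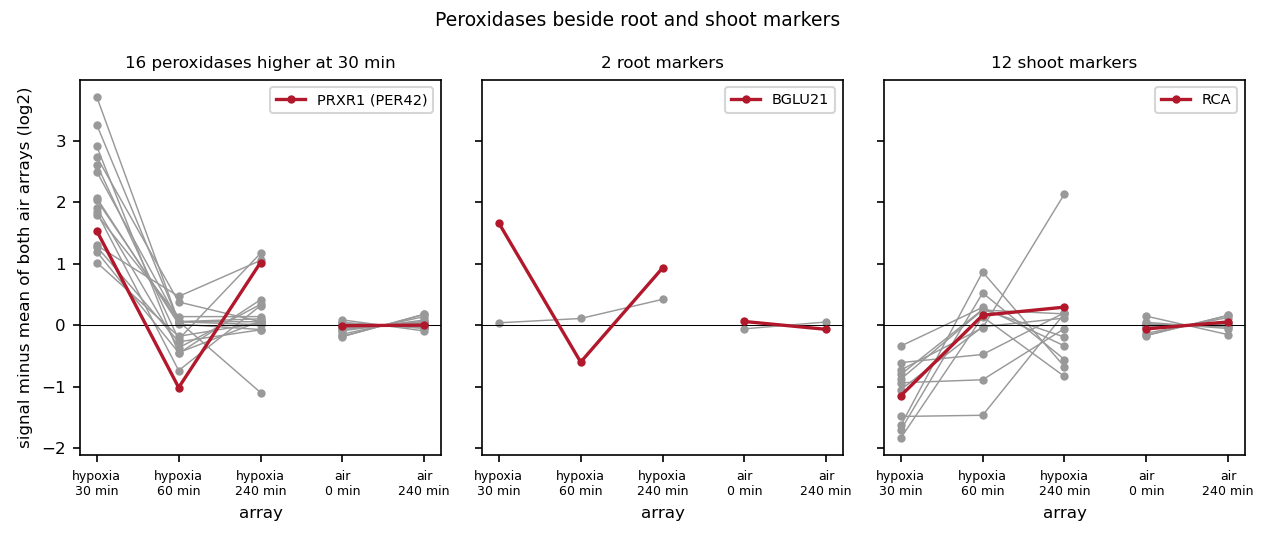
Signal minus the mean of both air arrays (log2, vertical axis) on the 3 hypoxic and 2 air arrays (horizontal axis) for the 16 peroxidases that were higher at 30 min, the 2 measured root markers and the 12 measured shoot markers, 1 line per gene. PRXR1 (red, left) and BGLU21 (red, middle) are high at 30 and 240 min and low at 60 min, while all shoot markers, RCA in red, are below 0 at 30 min, and the shoot marker furthest above 0 at 240 min is PORB, which read 7.87 there.

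At 60 and 240 min of hypoxia the family as a group stayed near air. At 60 min 1 member was higher by 1 or more (PER62) and 1 lower (PRXR1), beside 1.03% and 0.39% of named genes, and the median of the 46 members was −0.01. At 240 min 1 was higher (PRXR1) and 1 lower (PER50), beside 6.18% and 1.2% of named genes, with a median of −0.02. PRXR1 at 60 min, and PRXR1 and PER50 at 240 min, are within 0.02 of the limit of 1, and PER23, at 0.99, is just short of it at 240 min. The neighbours of PRXR1 by probe-set number had a median difference of 0.16 on the 240 min array, those of PER50 −0.22 and those of PER23 0.21. Against the mean of both air arrays PER21 and PER23 joined PRXR1 as higher at 240 min, and PRX71 joined PER50 as lower. Between the air arrays 0 of the 46 members differed by 1 or more, beside 0.195% of named genes higher and 0.0835% lower, and the median was 0.00.

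The other 29 measured members differed by less than 1 in all 4 comparisons. Of these, the 4 with the highest mean signal were PER15, PRX71, PER12 and PER19. PER15 read 9.08, 8.99 and 9.08 at 30, 60 and 240 min of hypoxia, against 9.12 and 9.10 in air. The bright signal of PER15 thus moved by no more than 0.13 over all arrays, though its probe set has the i suffix. Its tandem neighbour PER14 (AT2G18140) moved by 0.04 around 5.37. PER12 (AT1G71695) read 8.08, 8.47 and 8.28, against 8.33 and 8.33 in air, and was the member furthest below air at 30 min, at −0.24. PER19 (AT2G34060) read 7.08, 7.60 and 6.64, against 7.25 and 7.43 in air, and at −0.78 was among the lower members at 240 min.

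PER47 (AT4G33420) was higher at 240 min of hypoxia than in 240 min air by 0.81, with 7.56 against 6.75, but 0 min air stood at 7.18. PER30 (AT3G21770) differed by 0.69, −0.50 and 0.49 at 30, 60 and 240 min, with its dimmer second probe set at 0.52, −0.07 and −0.01. The 2 members with the lowest mean signal were PER9, at 4.59, and PER13, at 4.67, which were near the floor. The remaining members, PER6, PER11, PER18, PER24, PER26, PER41, PER43, PER46, PER48, PER54, PER55 and PER63, differed from air by −0.50 to 0.40 in the 3 hypoxia comparisons. In all, 20 of the 46 members spanned under 0.5 over the 5 arrays and 7 lay below the median of every array. Of the 21 that spanned 1 or more, 19 were highest at 30 min and 2 at 60 min. The family was picked as high on the 30 min array, so the count there restates that choice. Shares of named genes were not taken for these counts, and nothing is read from them.

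Of 14 pairs of family members that lie within 2 genes of each other, 3 had both members measured. The first is PER14 and PER15, which differed from 0 min air by −0.002 and −0.03 at 30 min. The second is PER22 and PER23, at 1.24 and 2.80. The third is PER43 (AT4G25980), at −0.01, and PER44, at 1.07. By chromosome, the genes counted at 30 min were 2 of 7 measured on chromosome 1, 4 of 13 on chromosome 2, 2 of 4 on chromosome 3, 5 of 12 on chromosome 4 and 3 of 10 on chromosome 5. They therefore came from all 5 chromosomes. Probe sets with the s suffix made up 9 of the 16 genes counted and 5 of the 30 others, and for these a similar gene could contribute to the signal.

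Of the partners of these enzymes few were measured. The NADPH oxidases, which make the superoxide that gives rise to hydrogen peroxide, had 3 of 10 genes measured and 0 that differed by 1 or more, with RBOHG (AT4G25090) at 0.61 at 30 min, RBOHE (AT1G19230) at 0.02 and RBOHI (AT4G11230) at 0.19. Other enzymes of peroxide and superoxide had 3 of 34 measured, of which 2 were lower by 1 or more at 30 min. TAPX, a thylakoid ascorbate peroxidase, read 5.62 at 30 min of hypoxia, against 6.85 in 0 min air, a difference of −1.22. AT3G11630, a chloroplast peroxiredoxin, read 8.71, against 9.76, a difference of −1.05, and SAPX, a stromal ascorbate peroxidase, differed by −0.12. The 2 lower genes and SAPX are all of the chloroplast. Shoot markers were lower on the same array, and a link was not tested. Of the Casparian strip and suberin genes 1 of 13 was measured, the receptor kinase gene GSO1 (AT4G20140), at 0.17 at 30 min. Of 21 monolignol genes, 17 laccases and 23 extensins and proline-rich wall proteins, 0 were measured by a named probe set.

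The low-oxygen core genes, whose counts are given above, were below air at 30 min, when the 16 peroxidases were high. AT4G27450 read 7.79, 11.81 and 6.79 at 30, 60 and 240 min of hypoxia, against 8.99 and 10.35 in air, so that it was lower at 30 and 240 min of hypoxia and higher at 60 min, when most of the 16 were close to air. PDC2, a pyruvate decarboxylase gene of fermentation, differed by −0.16 at 30 min, 2.07 at 60 min and −1.48 at 240 min. AT4G33560 differed by −1.43, 1.18 and −3.99. Between 240 and 0 min of air the differences were 1.36 in AT4G27450, 1.16 in PDC2 and 1.33 in AT4G33560.

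The 27 loci not measured by a named probe set, and not analysed here, are AT1G05240, AT1G05250, AT1G05260, AT1G14540, AT1G14550, AT1G34510, AT3G03670, AT3G17070, AT3G28200, AT3G49110, AT3G49120, AT3G50990, AT4G08770, AT4G08780, AT4G37530, AT5G05340, AT5G06720, AT5G15180, AT5G19880, AT5G22410, AT5G24070, AT5G42180, AT5G47000, AT5G58390, AT5G58400, AT5G64110 and AT5G67400.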

How the data were processed

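Total RNA of whole seedlings was labelled as biotinylated cRNA, per the labels' protocols. The deposited table holds log2 values of 8297 probe sets on 5 arrays, which the submitters' processing notes credit to RMA; its version and any further step are not given there. RMA subtracts background, normalizes the arrays together and compresses low signals. The values were used unscaled, after 50 control probe sets were set apart. Of 8247 probe sets 4383 were not in the platform's annotation table and are unnamed here. Of 3794 with 1 gene, 3784 matched the RefSeq TAIR10.1 table, giving 3592 genes. The build behind the probes is not stated, so no coordinates are given.

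Hypoxia (3 arrays) was compared with air (2 arrays) by limma 3.58.1 in R 4.3.3 (lmFit, eBayes, Benjamini-Hochberg over all probe sets, threshold 0.05), with the times as replicates, so that p-values also measure change with time. The 4 comparisons of 1 array with 1 array have no test and count differences of 1 or more. No detection calls were used, and precision is limited by the number of arrays. The members and lists were chosen with earlier results of these data known. Values are given for every member counted in any comparison, the 4 highest and 2 lowest by mean of the rest, and those needed to complete role groups or neighbouring pairs. Other genes of the text were chosen by the size of their differences or after their values were seen.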

Additional observations from a re-analysis of the deposited data

Results flagged for a closer look

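In 2 peroxidases hypoxia and air differed by 1 or more in opposite directions at different times. Each difference rests on 1 array on either side, and whether the times differ was not tested. PRXR1 (AT4G21960) differed from air by 1.54 at 30 min, −1.01 at 60 min and 1.02 at 240 min. PER50 (AT4G37520) differed by 2.41 at 30 min and −1.001 at 240 min. The values at 60 and 240 min are close to the limit of 1, and the 30 and 60 min differences share the 0 min air array. For PRXR1, 240 min of hypoxia exceeded 60 min of hypoxia by 2.03 with no air array involved.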

How the results depend on the processing

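The count of 16 peroxidases higher at 30 min was 12 with a difference of 1.5, 15 with the mean of a gene's probe sets, 17 with the mean of both air arrays as control, and 16 under the other alternatives, with 0 lower throughout. With 240 min air as control 15 of these 16 were shared, PER44 being lost at 0.98. At 60 min the 1 lower gene became 0 with a difference of 1.5 and when arrays were centred on brighter probe sets. At 240 min the 1 higher gene, PRXR1, became 0 under both of these settings, gave way to PER23 (1.03) after renormalization, where PRXR1 was at 0.997, and became 3 with the mean of both air arrays as control. The 1 lower gene became 0 with a difference of 1.5 and 2 against that mean. With 0 min air in place of 240 min air, an alternative chosen after seeing the data, 3 were higher and 2 lower. By limma, 0 of the 46 members passed in hypoxia against air under every alternative, array weights, renormalization, a filter on dim probe sets, a threshold of 0.10 and each array left out (0 to 0) included. At an unadjusted p of 0.05 (limma), 1 member (PER21) was higher. Without the 60 min array 5 of the 46 were higher, beside 109 of 8247 probe sets. That fit keeps both arrays on which the family was chosen, and nothing is read from it. Without the 30 min or the 240 min hypoxic array 0 members were higher or lower. The unadjusted p of PER21 without 1 hypoxic array ran from 0.00601 to 0.0776 (limma). Without the 0 min air array its difference was 0.76, and without the 240 min air array 1.12. All 100 recomputed differences of counted members kept their direction, which large differences make likely, and 5 shifted by over 0.22, which is the SD of differences between the air arrays. No paired analysis was possible because the replicate numbers only name the arrays. Low signals limit what 23 members under 5.5 in 0 min air can show.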
